A study of Homo sapiens with 6 samples.

Results

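The genes described here encode the nuclear-encoded subunits of the mitochondrial respiratory chain and ATP synthase, complexes I to V. They were chosen by name from the 31785 rows of the expression table: symbols that start with NDUFA, NDUFB, NDUFC, NDUFS, NDUFV, UQCR, ATP5 or COX followed by a subunit number, together with SDHA to SDHD and CYC1. Of 151 rows that met the naming rule, 49 pseudogenes, 10 complex I assembly factors and 5 rows with a hyphenated or read-through name were left out, which gave 87 subunit genes. Complex I had 37 of them, complex II 4, complex III 10, complex IV 16 and complex V 20. NDUFA4 and its paralog NDUFA4L2 were counted with complex IV, where NDUFA4 is known to reside. The complex III count includes UQCRHL, a near-copy of UQCRH, and the complex IV count includes COX7A2L, a supercomplex assembly factor. The complex V count includes ATP5IF1, an inhibitor, and ATP5S, which was not assigned to a structural part of the enzyme.

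The expression values came from RNA sequencing of D283 Med, an established cell line from a paediatric medulloblastoma, a malignant tumour of the cerebellum. The 3 wild-type libraries (WT) were compared with 3 libraries of the same line after knockdown of Musashi-1 (KD). Musashi-1 binds RNA, is known from neural stem cells, and controls the translation and stability of its target transcripts. The method of knockdown and any control construct in the WT cells are not named in the labels, nor is it stated that replicates were grown as separate cultures. The p-values therefore describe variation among the libraries only, which may in part be technical. Because RNA was taken from bulk cultures, fewer cells with a transcript and less transcript per cell cannot be told apart.

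The respiratory chain passes electrons from NADH at complex I and from succinate at complex II through ubiquinone to complex III, then through cytochrome c to complex IV, which reduces oxygen to water. Complexes I, III and IV pump protons across the inner mitochondrial membrane, and complex V uses the resulting gradient to make ATP. Except for complex II, each complex combines a small part encoded by mitochondrial DNA with many subunits that are encoded in the nucleus. These nuclear-encoded subunits are translated in the cytosol and imported. The mitochondrially encoded subunits were not analysed here.

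Library depth lay between 17299671 and 38790342 reads in WT and between 18895997 and 24442276 reads in KD. MSI1 itself was measured at 1586, 1572 and 1378 normalised reads in WT 1, 2 and 3 and at 1385, 1197 and 1281 in KD 1, 2 and 3. The 2 groups overlapped, and the difference was -0.21 (SE 0.12) on the log2-like deposited scale, with an adjusted p of 0.304 in limma. Of 6 medulloblastoma markers, EOMES, LMX1A and GFI1B were under the filter on low values (at most 19.6 normalised reads in any library), while OTX2 was high in all libraries (mean 23664 normalised reads in WT and 30373 in KD) and so was MYC (16640 and 23088). Blood and myeloid markers summed to 5.86 to 15.4 normalised reads in WT and 0 to 8.58 in KD, and glial markers to 8.79 to 17.7 and 3.04 to 11.3. Fibroblast markers summed to 302 to 337 in WT and 275 to 332 in KD, and epithelial markers (EPCAM, KRT8 and KRT18) to 4474 to 12058 and 6060 to 9609, and neither list held a called gene. NPR3, another medulloblastoma marker, fell from 13052 to 7759 normalised reads (adjusted p = 0.0437).

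Most respiratory chain subunits were measured at a higher level in the KD libraries, and the 7 that passed the test were all higher there. They were UQCRH and UQCR10 of complex III, COX5B, COX7B, COX8A and COX4I2 of complex IV and ATP5MC3 of complex V, with folds of 1.43 to 2.25. The test was limma over 13558 genes that passed a filter on low values, with a threshold of 0.05 on the adjusted p. Of the 87 subunit genes, 80 passed that filter. The 7 called subunits were 8.75% of the 80, while 4.1% of all tested genes were called, 1.78% higher and 2.32% lower. Of the 314 tested genes called lower, 89 lay on the long arm of chromosome 17, which held 578 of the 13558 tested genes. Of the 80, 72 lay above 0 and 8 below it (68 above 0 after median-centring and 70 after quantile normalisation), against 51.0% of all tested genes above 0. For 35 subunits (43.8%) all 3 KD libraries were above all 3 WT libraries, against 14.1% of all tested genes, and 1 subunit showed the opposite order, against 13.6%. At an unadjusted p under 0.05, 28 subunits were higher and 1 was lower, against 10.8% and 11.2% of all tested genes. Limma voom on recovered reads called the same 7 subunits. The median difference over the 80 was 0.24, against 0.006 over all tested genes.

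Medians lay above 0 in all complexes, but the number of calls rested on single libraries. Leaving out WT 1 gave 7 called subunits (5 of the former 7, NDUFS5, higher, and NDUFC2, lower), WT 2 gave 1 (UQCRH) and WT 3 gave 3. Leaving out KD 2 gave 1 (COX5B), and KD 1 or KD 3 gave 0. Without KD 1 and KD 3, 16 and 17 subunits were higher at an unadjusted p under 0.05. The shares over all genes in these fits are not given here, so these counts have no background. Over all genes, 556 were called with all libraries and 728, 202 and 499 without WT 1, 2 and 3. Without KD 1, 2 and 3 there were 56, 125 and 91, so the loss of calls was not particular to the subunits. Their median difference stayed between 0.17 and 0.31 over all alternatives. Subunit transcripts are short: their median length was 712 bases, against 2209 over all tested genes. The 2196 tested genes with transcripts under 1000 bases, short subunits included, had a median difference of 0.09. Of these 2196, 64.6% were above 0 and 17.1% were higher at an unadjusted p under 0.05. For 21.7% all 3 KD libraries were above all 3 WT libraries. After each library was regressed on transcript length and GC content, the subunits' median was 0.17 and 4 remained called (UQCRH, COX5B, COX8A and COX4I2).

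**Figure D1:**
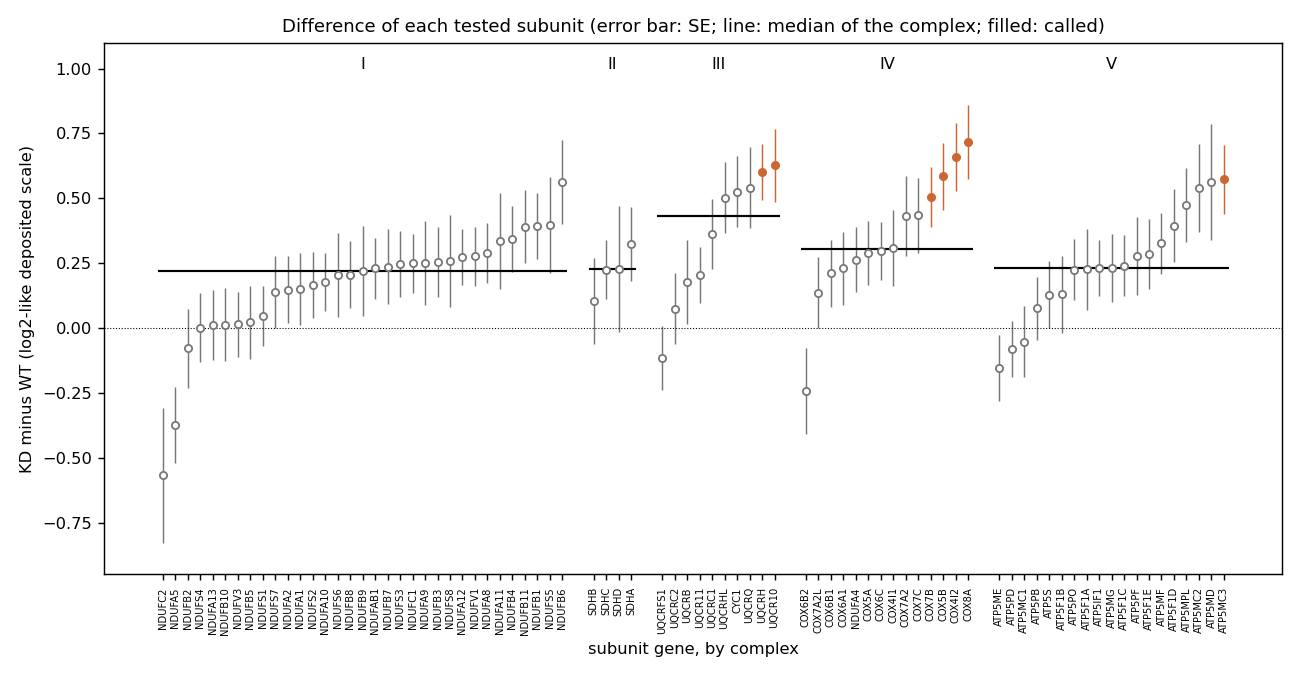
Difference of each tested subunit (KD minus WT, log2-like deposited scale, vertical axis) by gene and complex. Points are differences with their SE, black lines are complex medians and filled points are the 7 called subunits. Complexes III and IV hold 6 of the 7, and 8 subunits lie below 0.

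By complex, the median difference was 0.43 in complex III, 0.30 in complex IV, 0.23 in complex II, 0.23 in complex V and 0.22 in complex I. Complex III had 9 of 10 tested subunits above 0 and 2 called, complex IV 13 of 14 and 4 called, and complex V 16 of 19 and 1 called. Complex I had 30 of 33 above 0 and complex II 4 of 4, with 0 called by limma on the deposited values in either complex. Over all tested genes 1.78% were called higher. At an unadjusted p under 0.05 complex I had 7 higher and 1 lower subunit and complex II had 1 higher, and voom called 0 in both. The 7 of complex I were 21.2%, against 10.8% of all tested genes and 17.1% of those with transcripts under 1000 bases. All 3 KD libraries were above all 3 WT libraries for 7 of the 10 tested subunits of complex III and 9 of 14 of complex IV. The same held for 2 of 4 of complex II, 9 of 19 of complex V and 8 of 33 (24.2%) of complex I. The share was 14.1% over all tested genes and 21.7% over those with transcripts under 1000 bases, close to that of complex I. In a further alternative, subunits that share at least 10% of their transcript bases with another gene or have a near-identical copy were left out. The complex III median was then 0.27 and lay below that of complex IV (0.31), which reversed their order. UQCRFS1 and UQCRB, which share 5.01% and 4.71% of their bases, stayed in. Whether the complexes differ from each other was not tested.

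The pattern over libraries was similar in each complex. Centred on each gene's mean, the complex III medians were -0.16, -0.11 and -0.30 in WT 1, 2 and 3 and 0.25, 0.09 and 0.25 in KD 1, 2 and 3. The complex IV medians were -0.17, -0.14 and -0.23 in WT and 0.31, 0.03 and 0.21 in KD. For complex I they were -0.05, -0.06 and -0.14 in WT and 0.22, -0.03 and 0.13 in KD. In each of the 5 complexes KD 2 was the lowest KD library, yet it lay above every WT library, by the smallest margin in complex I. The complex II medians showed WT 1 apart from the other WT libraries (-0.31, -0.02 and -0.08). Over all tested genes the same medians lay between -0.02 and 0.01.

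**Figure D2:**
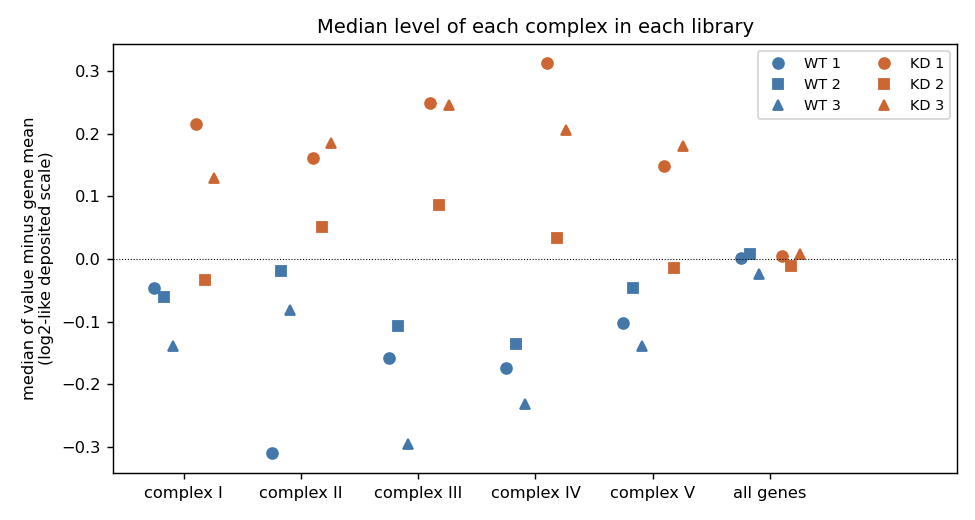
Median over the tested subunits of each complex of the value minus the gene's mean (vertical axis, log2-like deposited scale), 1 point per library. WT libraries lie below the KD libraries in all 5 complexes, KD 2 is the lowest KD library, and all tested genes lie between -0.02 and 0.01.

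Promoters of the called subunits are shown because the members were higher together. RefSeq promoters (GRCh38.p14) were found for 67 of the 87 subunits, among them 5 of the 7 called ones, and were read from 250 bases before to 30 after the gene start. The 3 marker subunits of the module and COX8A follow, 5' to 3' on the gene's strand. Capitals mark the cores searched on both strands for factors known to act on respiratory chain genes: AAGATGG for YY1, CCGGAAG for ETS factors such as GABP (NRF-2), and GCATGCG for NRF1. The 3 cores do not overlap here.
UQCRH (chr1:46303448-46303727, plus strand): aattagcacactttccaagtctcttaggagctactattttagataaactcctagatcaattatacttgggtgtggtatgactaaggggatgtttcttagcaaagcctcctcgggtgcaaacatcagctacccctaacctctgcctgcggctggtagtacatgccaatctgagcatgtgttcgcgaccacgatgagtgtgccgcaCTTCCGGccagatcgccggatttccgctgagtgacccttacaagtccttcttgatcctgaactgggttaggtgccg
COX5B (chr2:97645812-97646091, plus strand): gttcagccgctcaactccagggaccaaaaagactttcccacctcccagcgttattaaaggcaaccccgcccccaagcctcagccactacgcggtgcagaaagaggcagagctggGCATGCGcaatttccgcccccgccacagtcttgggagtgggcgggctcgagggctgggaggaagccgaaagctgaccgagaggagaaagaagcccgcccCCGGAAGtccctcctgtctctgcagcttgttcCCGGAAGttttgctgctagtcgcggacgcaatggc
COX7B (chrX:77899218-77899497, plus strand): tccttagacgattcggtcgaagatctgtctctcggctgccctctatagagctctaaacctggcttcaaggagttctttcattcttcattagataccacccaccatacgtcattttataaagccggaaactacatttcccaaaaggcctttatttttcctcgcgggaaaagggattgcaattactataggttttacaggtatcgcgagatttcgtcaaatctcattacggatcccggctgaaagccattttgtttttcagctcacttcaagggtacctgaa
COX8A (chr11:63974370-63974649, plus strand): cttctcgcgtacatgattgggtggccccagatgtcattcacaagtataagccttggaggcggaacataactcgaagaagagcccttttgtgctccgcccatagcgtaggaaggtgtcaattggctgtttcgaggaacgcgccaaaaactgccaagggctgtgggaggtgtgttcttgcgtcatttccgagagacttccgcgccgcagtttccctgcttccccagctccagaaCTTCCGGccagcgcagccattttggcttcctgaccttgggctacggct
The ETS core was present in UQCRH and COX8A on the minus strand (read as its complement) and at 2 places in COX5B, which also held the NRF1 core. COX7B and UQCR10 held none of the 3 cores within this window.

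Over all 67 subunit promoters, 29.9% held the ETS core, against 9.94% of 35116 promoters of the same length. The NRF1 core was in 19.4%, against 3.79%, and the YY1 core in 19.4%, against 5.19%. The SP1 box GGGCGG was in 61.2%, against 44.1%, while CCAAT (32.8% against 33.6%) and TATAAA (8.96% against 11.2%) were about as frequent as elsewhere. Subunit windows were richer in GC, with a median of 61.8% against 58.2%. Subunits with and without each core had similar differences. The median difference was 0.23 with and 0.25 without the ETS core, 0.23 with and 0.24 without NRF1, and 0.23 with and 0.24 without YY1. A match describes letters in the window and is not evidence of binding.

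Complex III, the cytochrome bc1 complex, takes electrons from ubiquinol and hands them to cytochrome c. UQCRH, the hinge protein that sits beside cytochrome c1, rose in KD. It was measured at 4794, 4930 and 4680 normalised reads in WT and at 7173, 7502 and 7331 in KD (4801 ± 125 and 7336 ± 165, SD, n = 3 each). The groups did not overlap and each was narrow, so the 1.53-fold difference of 0.60 (SE 0.11) had the smallest adjusted p among the subunits (0.0177). UQCRH lies on chr1:46303631-46316776 (GRCh38), and its promoter above holds an ETS core. The call was lost without KD 1, KD 2 or KD 3 (adjusted p = 0.0842, 0.0686 and 0.0906).

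UQCR10, a small single-span subunit, also rose. Its values were 549, 775 and 701 normalised reads in WT and 1212, 993 and 1074 in KD, a 1.62-fold difference of 0.63 (SE 0.14, adjusted p = 0.0383). The lowest KD library was above the highest WT library. Its adjusted p lay above 0.05 without any single library, between 0.0507 without WT 3 and 0.170 without KD 1.

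Other complex III subunits came close to the threshold without passing it. CYC1, the heme-bearing cytochrome c1, was measured at 4066, 4130 and 3599 normalised reads in WT and at 6505, 4757 and 5978 in KD (0.53, SE 0.14, adjusted p = 0.0613), with no overlap. UQCRQ, a small subunit, had 1249, 1982 and 1606 in WT and 2484, 2145 and 2451 in KD (0.54, SE 0.16, adjusted p = 0.0812). UQCRQ shares 40.8% of its transcript bases with exons of GDF9 on the opposite strand. Any use of strand in counting is not given, so its reads may not be its alone. UQCRC1, a core protein of the matrix side, differed by 0.36 (adjusted p = 0.155), and UQCRC2, its partner, by 0.07 (adjusted p = 0.798). UQCRFS1, the Rieske iron-sulfur protein that moves electrons to cytochrome c1, was the only subunit of the complex below 0, at 2256, 2051 and 1867 in WT and 2080, 1673 and 1929 in KD (-0.11, SE 0.12, adjusted p = 0.634). Its groups overlapped. The 6 supernumerary subunits had a median of 0.52, the 2 core proteins 0.22 and the 2 catalytic subunits 0.21.

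UQCRHL is nearly identical to UQCRH, with 505 of 515 aligned transcript bases the same (98.1%), so reads of the 2 genes may have been exchanged. It had 716, 728 and 578 normalised reads in WT and 978, 1143 and 876 in KD (0.50, SE 0.14, adjusted p = 0.0701). Per kilobase of transcript, its level was 3.88% of that of UQCRH in WT and 3.77% in KD.

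Complex IV, cytochrome c oxidase, is the terminal enzyme of the chain. Its 11 common nuclear-encoded subunits were all above 0, with a median of 0.31, and 3 of them were called. COX8A, the ubiquitous isoform of the smallest subunit, had 1398, 1826 and 1927 normalised reads in WT and 3145, 2499 and 2998 in KD. The groups did not overlap, and the 1.68-fold difference of 0.72 (SE 0.14, adjusted p = 0.0283) was the largest of all subunits on this scale. COX8A shares 34.5% of its transcript bases with AP000721.1, a gene on the same strand. Its call was lost without WT 2 (adjusted p = 0.0578), KD 1 (0.128), KD 2 (0.0510) or KD 3 (0.113).

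COX5B, a zinc-binding subunit on the matrix side, rose from 2442, 2573 and 2344 normalised reads in WT to 4152, 3145 and 3969 in KD. The fold was 1.53 and the difference 0.58 (SE 0.13, adjusted p = 0.0360), with KD 2 below the other KD libraries but above every WT library. Without WT 2, WT 3, KD 1 or KD 3 its adjusted p was 0.0697, 0.0620, 0.165 or 0.150. COX7B, a small membrane-spanning subunit, rose from 2805, 2424 and 2363 in WT to 3868, 3400 and 3619 in KD, again without overlap (1.43-fold, 0.50, SE 0.12, adjusted p = 0.0421). COX7B kept its call without WT 1 (adjusted p = 0.0258) and lost it without any other single library, with an adjusted p between 0.0754 and 0.177.

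Among the common subunits that did not pass, COX7A2 (0.43, adjusted p = 0.140) and COX7C (0.43, adjusted p = 0.119) had the largest differences. COX4I1, COX6C and COX5A, which surround the catalytic core, differed by 0.31, 0.30 and 0.29 (adjusted p = 0.250, 0.158 and 0.198). COX6B1, which faces the intermembrane space, differed by 0.21 and had the smallest difference of the group (adjusted p = 0.369). COX7A2L, the supercomplex factor, differed by 0.14 (adjusted p = 0.606), and its level per kilobase was 43.4% ± 9.43 of that of COX7A2 in WT and 34.6% ± 1.16 in KD (SD, n = 3).

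**Figure D3:**
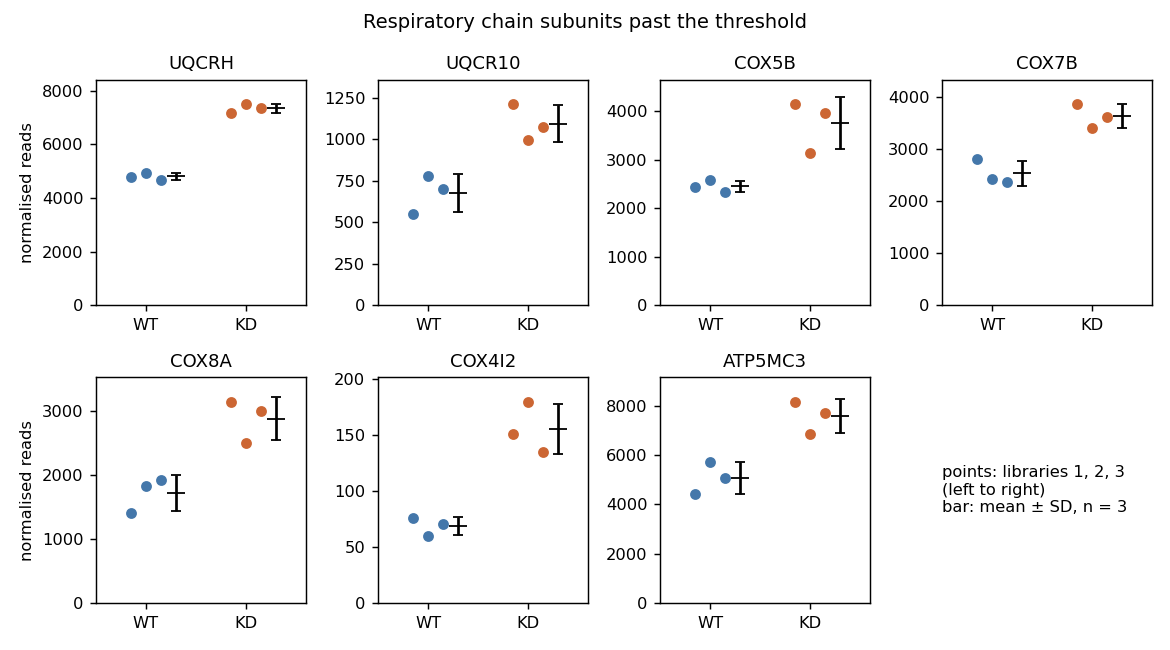
Normalised reads (vertical axes, from 0) of the 7 called subunits in WT and KD. Points are libraries 1, 2 and 3 from left to right and bars are the mean ± SD (n = 3); in all 7 panels every KD library lies above every WT library.

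Several complex IV subunits exist as alternative isoforms. COX4I2, the isoform of COX4 known from lung and from oxygen-regulated expression, was weakly expressed and rose, with 76.1, 59.9 and 70.6 normalised reads in WT and 151, 180 and 135 in KD. The fold of the means was 2.25, while the difference on the deposited scale, which understates weakly expressed genes, was 0.66 (SE 0.13, adjusted p = 0.0273). KD 2, the KD library with the lowest complex medians, was the highest library for COX4I2. Per kilobase, COX4I2 amounted to 2.06%, 1.96% and 2.49% of COX4I1 in WT and to 3.32%, 5.39% and 3.29% in KD. All KD shares lay above all WT shares, and the exact two-sided permutation test gave p = 0.1, the smallest it can give with 3 against 3 libraries. The call was lost without WT 2 (adjusted p = 0.0729), KD 1 (0.102), KD 2 (0.0922) or KD 3 (0.0708).

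The other restricted isoforms were low and did not share this direction. COX6B2, a testis-type isoform, had 54.2, 97.1 and 104 normalised reads in WT and 65.8, 71.7 and 41.8 in KD (-0.24, SE 0.16, adjusted p = 0.422), and the groups overlapped. NDUFA4L2, a paralog of NDUFA4, was under the filter, at 30.7, 26.5 and 43.8 in WT and 20.2, 16.3 and 17.2 in KD. Its level per kilobase was 1.61% ± 0.466 of that of NDUFA4 in WT and 0.703% ± 0.0726 in KD (SD, n = 3). COX7A1, the heart and muscle isoform, had at most 6.31 normalised reads in any library.

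Complex V, the ATP synthase, has a catalytic F1 head, a rotating ring of c subunits, a peripheral stalk and small membrane subunits. ATP5MC3, 1 of the 3 genes for subunit c, rose from 4428, 5726 and 5060 normalised reads in WT to 8169, 6835 and 7722 in KD. The groups did not overlap (1.49-fold, 0.57, SE 0.13, adjusted p = 0.0431). Without any single library its adjusted p lay above 0.05, between 0.0569 without WT 2 and 0.179 without KD 1. ATP5MC2 had 6237, 6977 and 4678 in WT and 9640, 7191 and 9172 in KD (0.54, SE 0.17, adjusted p = 0.104). ATP5MC1 had 4209, 3753 and 3371 in WT and 4262, 3285 and 3389 in KD, with overlapping groups and a difference of -0.05 (SE 0.14, adjusted p = 0.858) that was 0.02 without WT 1 and 0.01 without KD 2.

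The 3 genes encode the same mature subunit c with different import sequences, so their shares describe where its transcripts come from. Aligned stretches of their transcripts were 80.4% to 86.9% identical, and whether reads were exchanged was not tested. The mean of their summed level per kilobase was 21037 in WT and 27394 in KD (exact permutation p = 0.1), so a share can fall without a fall in the gene's own level. Per kilobase, ATP5MC1 made up 36.4%, 30.1% and 33.7% of the 3 genes' sum in WT and 25.9%, 25.5% and 22.6% in KD (33.4% ± 3.17 and 24.7% ± 1.78, SD, n = 3). The shares did not overlap, and the exact permutation test gave p = 0.1, the smallest possible. ATP5MC2 made up 37.8% in WT and 42.4% in KD and ATP5MC3 28.8% and 32.9%, each with an exact permutation p of 0.2. ATP5MC1 lies on the long arm of chromosome 17 (chr17:48892765-48895871, GRCh38). Of 578 tested genes on that arm 514 were lower in KD, with a median of -0.33, and 89 were called lower and 0 higher. What this shift of the arm reflects was not tested, nor was its part in the ATP5MC1 share. ATP5PD, a stalk subunit and the only other subunit gene on that arm, had 2839, 2753 and 2520 normalised reads in WT and 2663, 2432 and 2545 in KD (-0.08, SE 0.11, adjusted p = 0.703).

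**Figure D4:**
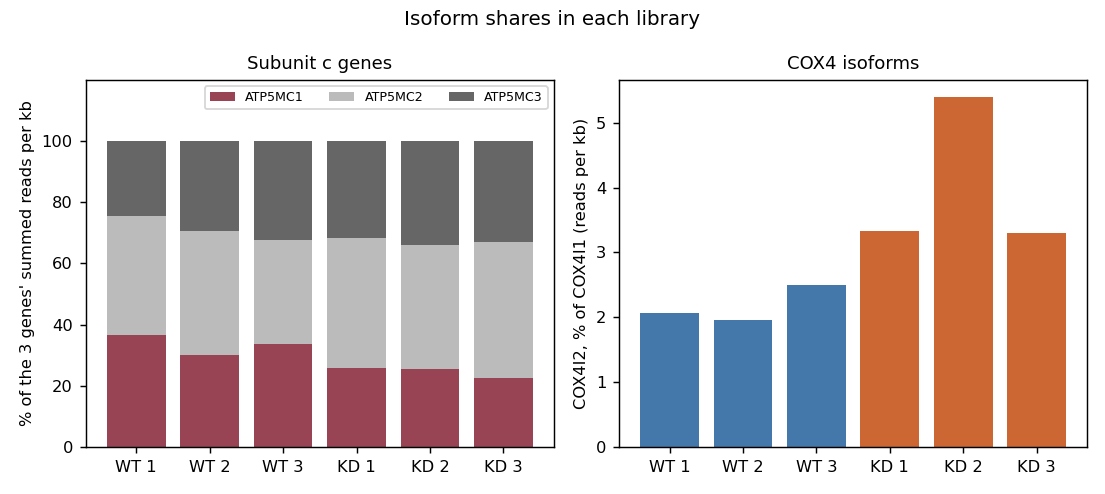
Left, share of each subunit c gene in the summed reads per kilobase of the 3 genes (%, stacked bars, 1 per library). Right, COX4I2 as a percentage of COX4I1 in reads per kilobase. ATP5MC1 takes 30.1% to 36.4% in WT and 22.6% to 25.9% in KD, and COX4I2 is 1.96% to 2.49% of COX4I1 in WT and 3.29% to 5.39% in KD.

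No other complex V subunit passed the test. The 5 F1 subunits were all above 0, except that ATP5F1B was at -0.03 after quantile normalisation. Their median was 0.24, from 0.13 for the catalytic ATP5F1B to 0.39 for ATP5F1D of the central stalk (adjusted p = 0.652 and 0.142). The 4 peripheral stalk genes had a median of 0.15. Among the membrane subunits, ATP5MPL had 1693, 2438 and 2398 normalised reads in WT and 3078, 3026 and 2984 in KD (0.48, SE 0.14, adjusted p = 0.0919), and ATP5MD differed by 0.56 (SE 0.22, adjusted p = 0.178) with a low WT 1 (657 against 1245 and 1444). ATP5ME had the lowest difference of the complex, with 476, 460 and 369 in WT and 364, 380 and 394 in KD (-0.15, SE 0.13, adjusted p = 0.522). ATP5ME shares 49.9% of its transcript bases with MYL5, a gene on the opposite strand. ATP5IF1, the inhibitor that stops ATP hydrolysis, differed by 0.23 (adjusted p = 0.247), with no overlap between groups.

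Complex I, the NADH dehydrogenase, is the largest complex and had no called subunit. Its N module, which oxidises NADH, had a median of 0.15 over 7 tested genes. The Q module, which reduces ubiquinone, had a median of 0.21 over 6. The proximal and distal parts of the membrane arm had medians of 0.21 over 8 and 0.24 over 11. Whether the modules differ was not tested.

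In the N module NDUFV1, the subunit that binds NADH and FMN, had 4839, 5083 and 4675 normalised reads in WT and 6131, 5433 and 6211 in KD. The groups did not overlap (0.28, SE 0.11, adjusted p = 0.190). NDUFS4, an accessory subunit of this module, had 666, 720 and 680 in WT and 774, 570 and 739 in KD, a difference of 0.001 (SE 0.13, adjusted p = 0.997). In the Q module NDUFS8, which carries iron-sulfur clusters, had 2072, 2041 and 1908 in WT and 3084, 1743 and 2621 in KD (0.26, SE 0.18, adjusted p = 0.434). The KD libraries lay on both sides of WT.

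NDUFA5, an accessory Q-module subunit, showed the opposite order to most of the chain. It had 1764, 1338 and 1185 normalised reads in WT and 989, 1092 and 1118 in KD, the only tested subunit with every KD library below every WT library (-0.37, SE 0.15, adjusted p = 0.172). In the proximal membrane arm NDUFS5 had 4622, 2917 and 2569 in WT and 4412, 4210 and 4381 in KD (0.40, SE 0.19, adjusted p = 0.243). WT 1 stood apart from the other WT libraries for NDUFS5, and without WT 1 the difference was 0.64 (adjusted p = 0.0209). NDUFC2 had 388, 1095 and 639 in WT and 370, 459 and 401 in KD (-0.57, SE 0.26, adjusted p = 0.233), the lowest difference of any subunit, and without WT 1 it was -0.88 (adjusted p = 0.0390). NDUFC2 shares 76.1% of its transcript bases with the read-through gene NDUFC2-KCTD14.

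In the distal membrane arm NDUFB6 had the largest difference of complex I, with 748, 1202 and 1154 normalised reads in WT and 1497, 1508 and 1649 in KD (0.56, SE 0.16, adjusted p = 0.0804). The groups did not overlap. NDUFB2 had 1161, 891 and 769 in WT and 939, 765 and 926 in KD (-0.08, SE 0.15, adjusted p = 0.811). NDUFB1, NDUFB11 and NDUFB4 of the same arm differed by 0.39, 0.39 and 0.34 (adjusted p = 0.114, 0.145 and 0.152). NDUFAB1, the mitochondrial acyl carrier protein, which binds at 2 places of complex I, differed by 0.23 (adjusted p = 0.284).

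Some complex I genes were barely counted. NDUFA6 had 1.26 normalised reads in WT 2 and 0 in the other 5 libraries, NDUFA7 had means of 12.8 in WT and 14.4 in KD, NDUFV2 24.5 and 28.0, and NDUFA3 10.7 and 2.59. With ATP5MGL, COX7A1 and NDUFA4L2 these are the 7 subunit genes under the filter. NDUFV2 and NDUFA7 share 82.9% and 78.7% of their transcript bases with other genes, so their levels in these rows may not be those of the transcripts.

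Complex II, succinate dehydrogenase, links the TCA cycle to the chain and has no mitochondrially encoded subunit. SDHA, the flavoprotein, had 294, 390 and 407 normalised reads in WT and 520, 423 and 490 in KD, without overlap (0.32, SE 0.14, 95% interval 0.01 to 0.64, adjusted p = 0.214). SDHA pseudogene rows held 171% of the reads of SDHA, so reads may be split between them. SDHB, the iron-sulfur subunit, had 3003, 2100 and 2071 in WT and 2809, 2106 and 2773 in KD (0.10, SE 0.17, adjusted p = 0.759). The membrane anchors SDHC and SDHD each differed by 0.23 (adjusted p = 0.274 and 0.630), and SDHD had a low WT 1, at 471 against 1004 and 1055, without which its difference was -0.10.

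Across complexes, subunits that carry redox centres or catalytic sites were compared with the others, a grouping chosen after the values were seen. The 12 tested genes of this kind had a median difference of 0.20 and 0 were called by limma, with 3 at an unadjusted p under 0.05. The other 68 had a median of 0.24 and held all 7 calls, 4 of them in complex IV. Of these 68, 25 (36.8%) were higher at an unadjusted p under 0.05. Over all tested genes 1.78% were called higher, and over all tested subunits 8.75%. At such shares 0 calls among 12 genes do not set the list apart. The difference between these groupings was not tested. Per kilobase, the most abundant subunits in WT were ATP5F1B (14938 normalised reads), UQCRB (14568) and ATP5F1A (10609), and none of these 3 was called (adjusted p = 0.652, 0.565 and 0.432).

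Lists of genes that work with the subunits held 0 to 2 called genes each. Of 50 tested assembly factors, which build the complexes, 34 were above 0, with a median of 0.12, and 1 was called (2.0%, against 1.78% of all tested genes called higher). This was SDHAF4, which assists maturation of SDHA, with 250, 233 and 203 normalised reads in WT and 376, 355 and 445 in KD (1.72-fold, 0.59, SE 0.13, adjusted p = 0.0383). Of 77 mitochondrial ribosomal protein genes, 57 were above 0, with a median of 0.15, and 2 were called (2.6%, near the same background), MRPS28 (1.85-fold, adjusted p = 0.0359) and MRPL13 (1.38-fold, adjusted p = 0.0446). Of 18 TCA cycle genes 15 were above 0, with a median of 0.11, and 0 were called by limma (4 higher and 1 lower at an unadjusted p under 0.05) and by voom. Over all tested genes 51.0% were above 0, and 10.8% were higher and 11.2% lower at an unadjusted p under 0.05.

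Electron carriers and biogenesis regulators had medians near 0. For 8 tested genes for cytochrome c and other routes to ubiquinone the median was -0.01, and for 17 regulators of mitochondrial biogenesis it was -0.07. Limma and voom called 0 in either list, with 0 and 2 genes higher at an unadjusted p under 0.05. The 2 were 11.8% of the regulators, against 10.8% of all tested genes. CYCS, which encodes the cytochrome c that complexes III and IV share, had 4362, 4039 and 4351 normalised reads in WT and 3495, 3896 and 3688 in KD (-0.20, SE 0.11, adjusted p = 0.317), with every KD library below every WT library. Of the regulators, NRF1 differed by 0.01, GABPA by -0.07, YY1 by -0.17 and PPARGC1A by -0.15 (adjusted p = 0.959, 0.774, 0.420 and 0.638). MYC, which also activates mitochondrial genes, had 18519, 14128 and 17273 in WT and 21881, 23097 and 24285 in KD (0.48, SE 0.15, adjusted p = 0.0976).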

How the data were processed

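RNA of 3 WT and 3 KD libraries of D283 Med had been sequenced. STAR and DESeq are listed beside Trim Galore and CASAVA 1.8.2 per the submitters' processing notes, with build GRCh38. The counter, the annotation and any use of strand: not given in the sources used here. The deposited table holds log2-like values that the authors had scaled per library and variance-stabilised, going by its name and values. WT columns carry a heading the labels do not explain and were taken as WT by elimination, with replicate numbers from the headings.

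Inverting the stabilising function (offset 55.2) gave normalised reads; 100% of values became whole reads within a tolerance of 0.01. Differences are KD minus WT on the deposited scale. Rows with a mean at least 1 above the lowest value (27.6 normalised reads) were kept, 13558 of 31785. Groups were compared with limma 3.58.1 (R 4.3.3; two-sided, mean-variance trend, Benjamini-Hochberg over kept rows), checked on simulated data. Levels between genes are per kilobase of GENCODE 29 transcripts. No library pair agreed within sampling noise. Alternatives changed filter, scaling, variance model, weights, block, length and GC correction, counts (voom) and libraries. Leaving out subunits with overlaps of at least 10% of transcript bases or near-identical copies was added after seeing the data.

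The members, gene lists and roles were chosen with earlier results of these data known. Full values were given for called subunits, UQCRH, COX5B and COX7B, the extremes of each complex and complex I module, alternative isoforms and subunits on 17q.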

Additional observations from a re-analysis of the deposited data

How the results depend on the processing

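Every complex median stayed above 0 under all alternatives, and the median of all subunits lay between 0.17 and 0.31. Leaving out 1 library gave 56 to 728 called genes, 0 to 7 called subunits and a complex IV median of 0.281 (without KD 3) to 0.409 (without KD 2). Estimated library weights gave 1213 genes and 12 subunits. Length and GC correction gave 517 genes and 4 subunits. Without subunits that overlap another gene by at least 10% or have a near-identical copy, the complex III median was 0.27. That alternative was added after seeing the data. Calls under median-centring were 236 higher of 606 and under quantile normalisation 270 of 613, against 242 of 556.

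Replicate numbers did not pair the libraries (correlations of deviations -0.005, -0.25 and 0.005). In a fit with a replicate block, limma called 221 genes and 0 subunits (25 higher and 2 lower at an unadjusted p under 0.05), and with block and length and GC correction 239 and 0 (16 higher and 2 lower). For these unadjusted counts the shares over all genes are not given here.

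Of the 80 tested subunits, 11 changed sign under at least 1 alternative (NDUFS4, NDUFB2, ATP5MC1, NDUFB5, NDUFB10, NDUFA13, NDUFV3, NDUFS1, UQCRC2, SDHD and ATP5F1B), and none of these was called. NDUFS4 was at -0.0139 after median-centring, -0.0129 after quantile normalisation, -0.0681 after length and GC correction with or without the block, and between -0.0723 and 0.119 without single libraries. Without single libraries ATP5MC1 lay between -0.168 and 0.0249 (above 0 without WT 1 or KD 2) and NDUFB2 between -0.199 and 0.0686 (above 0 without the same libraries). The 7 genes under the filter had no test, and SE of 0.11 to 0.26 limits what 3 libraries a group can show.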
